A study of Caenorhabditis elegans with 2 samples.

Results

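The histone genes of Caenorhabditis elegans were examined for binding of the transcription factor PES-1 in early embryos. They were all nuclear protein-coding genes of the Ensembl WBcel235 annotation whose symbol is his- followed by a number, 72 of 19973 genes. Ensembl repeats several of these symbols, so each gene is called here by its RefSeq symbol, matched through the WormBase identifier, and 22 of the 72 symbols differed. By RefSeq product name the set holds 1 linker histone H1 gene, 17 H2A, 16 H2B, 20 H3 and 16 H4 genes, and 2 genes whose product names no type, his-39 and his-73.

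Chromatin immunoprecipitation followed by sequencing (ChIP-seq) was done in 2 biological replicates of 1 group, with no second genotype, stage or treatment. Both came from strain RW12239, which carries the insertion st12239 on chromosome IV, a genome-edited pes-1 gene that encodes PES-1 fused to TY1, EGFP and 3xFLAG tags. The embryos were obtained by bleaching and collected at an age of 1 hour, and the labels name the whole organism as the source, so the cells in which the factor was bound cannot be told apart. The antibody was directed against the GFP part of the fusion. An embryo without the tag was not analysed here.

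Core histones H2A, H2B, H3 and H4 form the octamer around which DNA is wrapped, and linker histone H1 binds the DNA between octamers. In the worm, as in many animals, most core histone genes lie in repeated clusters, usually as divergent pairs that share the DNA between their 5' ends, and they are transcribed mainly as DNA is replicated. Replication-independent variants such as those of the H3.3 family lie outside the clusters and are also made in cells that do not divide. PES-1 belongs to the forkhead family of transcription factors.

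A promoter peak was a peak summit in a window that reaches 1000 bp upstream and 200 bp downstream of an annotated transcript 5' end. Summits came from the authors' conservative list, in which each peak passed an irreproducible discovery rate (IDR) of 0.01 between the replicates, and a summit no more than 200 bp from a higher one was joined to it. The list held 1440 distinct nuclear summits. Each peak carries a signal, a linear value given by the authors' peak caller whose scaling between lists is not stated. Peaks are therefore ranked here within a list. Where the values of the replicates are set side by side, a difference between them cannot be told apart from a difference in scaling.

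PES-1 peaks lay at 27 of the 72 histone genes (37.5%, 95% Wilson interval 27.2 to 49.05%, for counting error only, since genes that share a summit or a sequence are not independent). Over all nuclear protein-coding genes the share was 4.09%, that is 816 of 19973. The 27 genes rested on 25 distinct summits. Of these summits, 14 lay in the window of 1 histone gene and 11 in the windows of both genes of a pair, while 18 genes had 1 summit and 9 had 2. A histone 5' end was the nearest coding 5' end for 24 of the 25, the exception being 1 summit in an exon of C50F4.6 that also lay in the window of his-37.

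The DNA between the 5' ends of divergent pairs is shown first, since many pairs have a segment with an exact copy at another pair. In the annotation 65 of the 72 genes have their 5' end within 3 bp of the start codon, so these segments span nearly all of the DNA between the 2 coding sequences. The first 3 segments below are H3/H4 pairs on chromosome V, read from the H3 start towards the H4 start in the RefSeq copy of WBcel235 (ce11), and capitals mark TATAAA and CTCCNCC on either strand, so that TATAAA on the other strand reads TTTATA. They are the segment of his-17/his-18 (chrV:8897993-8898227, plus strand), that of his-49/his-50 (chrV:8847705-8847942, minus strand) and that of his-6/his-5 (chrV:8534978-8535213, plus strand).
his-17/his-18 segment: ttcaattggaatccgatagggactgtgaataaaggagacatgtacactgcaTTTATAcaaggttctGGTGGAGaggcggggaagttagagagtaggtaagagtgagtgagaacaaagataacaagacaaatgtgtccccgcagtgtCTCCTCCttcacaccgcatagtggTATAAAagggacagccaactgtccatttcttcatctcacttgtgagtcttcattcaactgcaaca
his-49/his-50 segment: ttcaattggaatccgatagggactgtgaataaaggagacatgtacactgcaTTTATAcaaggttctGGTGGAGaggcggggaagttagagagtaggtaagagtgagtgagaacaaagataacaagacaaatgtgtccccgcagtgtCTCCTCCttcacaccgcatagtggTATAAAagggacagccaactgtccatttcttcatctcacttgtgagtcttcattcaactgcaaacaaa
his-6/his-5 segment: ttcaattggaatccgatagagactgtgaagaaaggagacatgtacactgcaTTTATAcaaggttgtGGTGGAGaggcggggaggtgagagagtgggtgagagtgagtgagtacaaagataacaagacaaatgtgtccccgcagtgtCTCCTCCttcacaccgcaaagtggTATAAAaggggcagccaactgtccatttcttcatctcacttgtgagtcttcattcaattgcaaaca

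The his-17/his-18 and his-49/his-50 segments were 98.7% identical, with 3 edits over their length, and the his-6/his-5 segment was 94.9% identical to that of his-17/his-18. The his-49/his-50 segment also had an exact copy, between his-28 and his-27. Peaks were present at his-17/his-18, with 2 summits, and at his-6/his-5, with 1, and absent at his-49/his-50 and his-28/his-27. These 4 segments therefore hold the same marked words in nearly the same places. Only the his-6/his-5 segment held a summit itself, since both summits of his-17/his-18 lay in coding sequence.

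Among all 31 divergent histone pairs there were 21 distinct segments, and 16 pairs had a segment with at least 1 exact copy elsewhere among the pairs. Uniqueness was measured as the share of 50 bp words, read from each base, that occur once in the nuclear and mitochondrial genome on either strand. It was 0% between his-49 and his-50, 1.08% between his-17 and his-18, and 97.9% between his-6 and his-5. Read length and the treatment of reads that match several places are not stated in the sources used here, and the part of repeated sequence in the pattern of peaks was not tested.

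The 31 divergent pairs held 62 of the 72 histone genes. Of the 31 pairs, 13 (41.9%) had a summit in the window of either gene, beside 9.63% of 1714 other head-to-head pairs of coding genes within 1000 bp. A summit lay between the 5' ends themselves in 4 histone pairs (12.9%) and in 7.53% of the other pairs. The 14 H3/H4 pairs included 8 with a summit, the 16 H2A/H2B pairs included 4, and the only H2A/H4 pair, his-68/his-67, had 1.

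**Figure D1:**
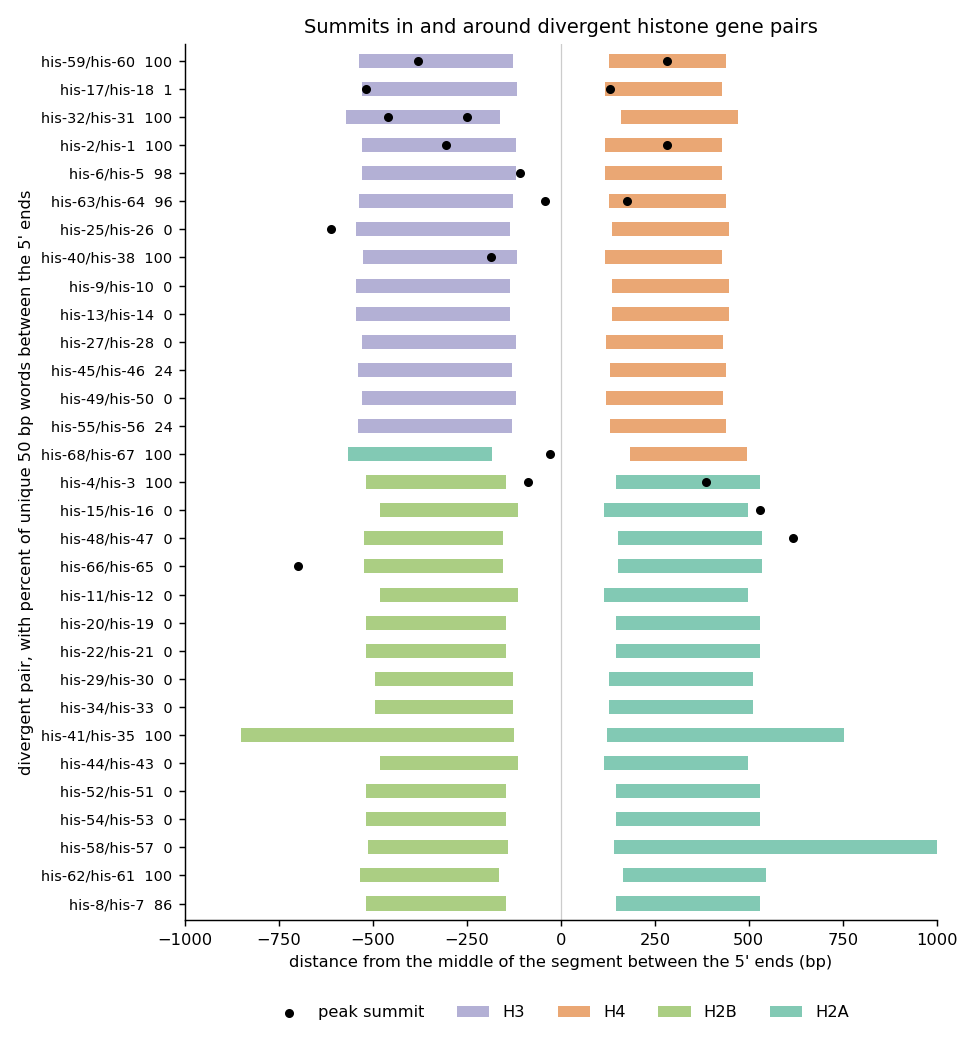
Position of peak summits (black points) in and around the 31 divergent histone pairs. The x axis is the distance in bp from the middle of the segment between the 5' ends, boxes are the genes, coloured by histone type, and the number after each pair is the percent of unique 50 bp words between the 5' ends. Most summits of the H3/H4 pairs lie over the boxes, while the summits at his-15, his-26, his-48 and his-65 lie past the outer end of a pair.

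The highest histone signal was at the pair of his-67 (H4, chrI:9988452-9988763) and his-68 (H2A, chrI:9989132-9989515). The peak had a signal of 161 in replicate 1 and 236 in replicate 2, and 407 in the conservative list, where it ranked 198 of 1440. Its summit lay between the genes, 155 bp upstream of his-68 and 214 bp upstream of his-67. This pair lies outside the clusters and 100% of the words between its 5' ends were unique.

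His-59 (H3, chrIV:7488249-7488659) and his-60 (H4, chrIV:7487681-7487992) had the next highest signal, with 161 in replicate 1 and 162 in replicate 2, and 340 in the conservative list. The summit lay inside the coding sequence of his-60, 155 bp downstream of its 5' end. A further summit, with 59.5 and 91.1 in the replicates and 142 in the conservative list, lay in the coding sequence of his-59. The replicates differed by less at the first of these peaks than at the second, and both summits passed the threshold in each replicate's own list.

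The 101 bp around the stronger of these summits are shown because they are protein-coding DNA, on the plus strand at chrIV:7487787-7487887, with the summit base in capitals. His-60 is transcribed from the other strand.
his-60 coding summit: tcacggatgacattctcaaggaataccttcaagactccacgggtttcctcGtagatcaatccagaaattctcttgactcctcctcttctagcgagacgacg

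Summits in coding sequence were common among the histone genes. Of the 25 summits, 12 lay in the coding sequence of a histone gene, 6 of them in H3 genes, 4 in H4 genes, 1 in the H2A gene his-3 and 1 in the linker gene his-24. With the summit in C50F4.6 included, 13 of 25 (52%) lay in coding sequence, beside 3.72% of the 619 other promoter summits. Histone promoter windows also hold more coding sequence, 43.1% of their bases beside 21.5% in the windows of other genes. The genes are short, and the window of 1 gene reaches over its partner. For 65 of the 72 the annotated 5' end is within 3 bp of the start codon, so the downstream part of the window is largely coding. The part of each in the difference was not tested. The 25 summits lay a median of 187 bp from the nearest 5' end, and the other promoter summits 210 bp.

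His-17 (H3, chrV:8897582-8897992) and his-18 (H4, chrV:8898228-8898539) shared a summit 13 bp inside the coding sequence of his-18, just beyond the segment printed above. Its signal was 87.4 in replicate 1, 145 in replicate 2 and 244 in the conservative list. The other summit of the pair lay in his-17, 9 bp from its annotated 3' end, with 65.6 and 48.7 in the replicates and 120 in the conservative list. That weaker summit was the only one of the 25 missing from the optimal list. Within 100 bp of these summits 30.3% and 32.9% of the 50 bp words were unique, the lowest values among the histone summits.

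At his-6 (H3, chrV:8534567-8534977) and his-5 (H4, chrV:8535214-8535525) the signal was 59.1 in replicate 1, 114 in replicate 2 and 195 in the conservative list. The summit lay in the segment printed above, 10 bp upstream of his-6. Replicate 2 was the higher one, and each replicate's own list held the peak.

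The pair of his-31 (H4, chrIV:8333672-8333983) and his-32 (H3, chrIV:8334305-8334715) had 2 summits, both in the coding sequence of his-32 and both drawn from 1 deposited peak interval of 675 bp. The signals in the conservative list were 241 and 140. Replicate 1 had 1 peak that matched both, with 104, and replicate 2 had 117 and 72.7. The summits lay 90 and 298 bp downstream of the his-32 5' end, and only replicate 2 had a separate peak at each.

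On chromosome V, his-4, his-3, his-2 and his-1 form the only cluster in which every gene had a promoter peak. The segment between his-4 (H2B, chrV:16040144-16040515) and his-3 (H2A, chrV:16040808-16041191) is the only H2A/H2B segment with a summit in it and is shown for that reason, from the H2B start on the plus strand (chrV:16040516-16040807), with the same words in capitals. Its summit lay 59 bp upstream of his-4, at the first base of the first run in capitals.
his-4/his-3 segment: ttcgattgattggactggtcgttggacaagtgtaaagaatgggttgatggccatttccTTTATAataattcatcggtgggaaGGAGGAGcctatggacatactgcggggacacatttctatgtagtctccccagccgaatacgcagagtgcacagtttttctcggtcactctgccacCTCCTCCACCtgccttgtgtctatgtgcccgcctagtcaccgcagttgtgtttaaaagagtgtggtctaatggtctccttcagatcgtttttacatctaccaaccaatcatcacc

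The signal there was 135 in replicate 1, 143 in replicate 2 and 283 in the conservative list, the third highest among the histone summits. A weaker summit lay in the coding sequence of his-3, with 79.8 and 88.0 in the replicates and 157 in the conservative list. The neighbouring H3/H4 pair, his-2 (chrV:16041873-16042283) and his-1 (chrV:16042520-16042831), had a summit in the coding sequence of each gene. The signal was 108, 103 and 213 at his-1 and 111, 75.4 and 154 at his-2, in replicate 1, replicate 2 and the conservative list. Replicate 1 was the higher one at both, against the direction at most histone summits.

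His-63 (H3, chrIV:11406451-11406861) and his-64 (H4, chrIV:11407116-11407427) also had 2 summits. The one in the coding sequence of his-64 had 92.2 in replicate 1, 86.0 in replicate 2 and 191 in the conservative list. The one between the genes, 86 bp upstream of his-63, had 45.5, 140 and 173. Replicate 2 was far above replicate 1 at the second, and that peak was absent from replicate 1's own thresholded list.

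The pair of his-40 (H3) and his-38 (H4) on chromosome X had the weakest histone summit of all, in the coding sequence of his-40, with 44.3 in replicate 1, 69.7 in replicate 2 and 97.7 in the conservative list. Neither replicate's own list held it. It was in the optimal list, like all histone summits except that in his-17.

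**Figure D2:**
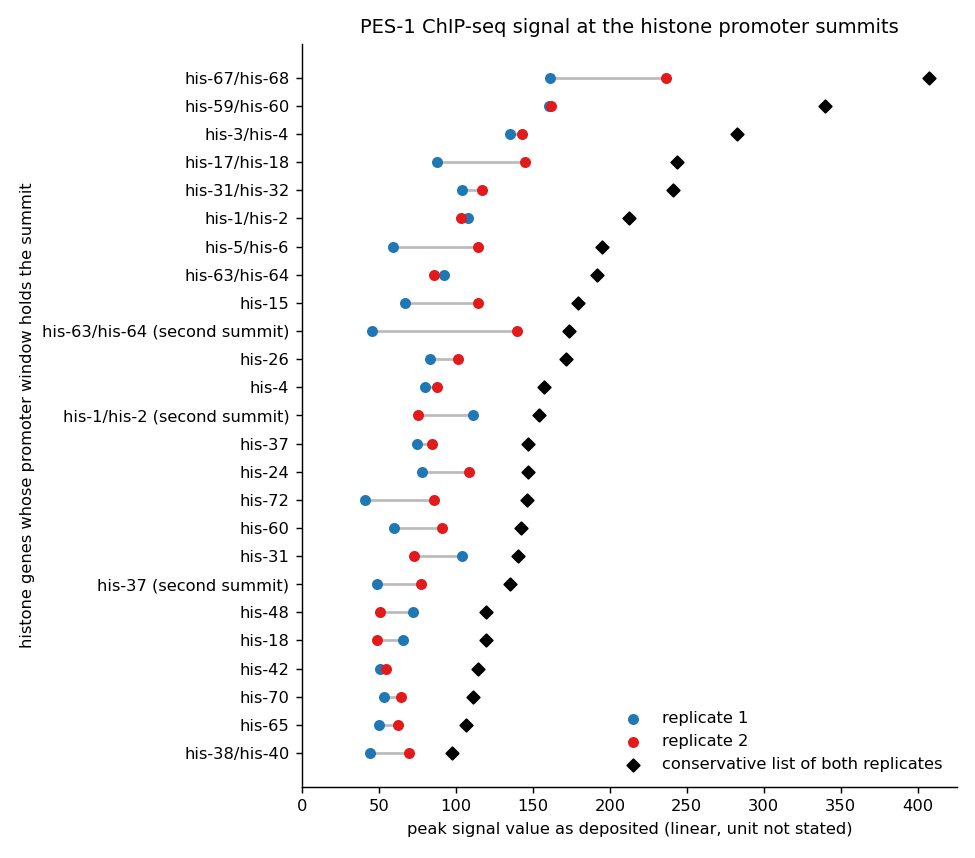
Signal of the 25 histone promoter summits in replicate 1 (blue), replicate 2 (red) and the conservative list (black diamonds). The x axis is the deposited peak signal on a linear scale starting at 0, and the names are the histone genes whose window holds the summit. The conservative values run from 97.7 to 407, and replicate 2 is above replicate 1 at 19 of the 25 summits.

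Over the 25 summits the conservative signal ran from 97.7 to 407 with a median of 154, beside 157 for the 619 other promoter summits and 147 for all summits of the list. In signal the histone summits thus lay within the range of the rest, and 13 of the 25 were in the upper part of the list by signal, split at its middle. Every histone summit had a peak within 200 bp in the full ranked list of each replicate. The replicates' own thresholded lists held fewer, 18 of the 25 in replicate 1, 18 in replicate 2, 15 in both and 4 in neither. Those in neither were the summit of his-38/his-40, the weaker one of his-17/his-18 and those counted for his-42 and his-65. Replicate 2 gave the higher signal at 19 of 25, with a median log2 ratio of replicate 2 to replicate 1 of 0.27 (SD 0.53, n = 25 summits), and the median over the 1377 other summits matched in both was 0.32. In the order of conservative signal, the replicate ranges of neighbouring summits overlapped in 23 of 24 cases. Each range rests on 2 values from lists whose scaling is not stated, so the order of neighbours is not settled.

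By histone type, promoter peaks were found at 10 of 16 H4 genes, 10 of 20 H3 genes, 3 of 17 H2A genes, 3 of 16 H2B genes and the 1 linker gene. The genes with a peak were his-1, his-5, his-18, his-26, his-31, his-37, his-38, his-60, his-64 and his-67 for H4. For H3 they were his-2, his-6, his-17, his-32, his-40, his-42, his-59, his-63, his-70 and his-72. For H2A they were his-3, his-65 and his-68, and for H2B his-4, his-15 and his-48.

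Uniqueness also differed between the types, and its part in the shares with a peak was not tested. The median share of unique words in the promoter window was 72.9% for H3, 43.3% for H4, 19.7% for H2B, 4.16% for H2A and 88.1% for the 2 untyped genes, neither of which had a peak. H4 genes had a peak more often than H3 genes in these counts (62.5% beside 50%) with the lower median uniqueness, a difference that was not tested. That order depended on the counting. When a summit counted for its nearest gene only, 5 of 16 H4 genes and 8 of 20 H3 genes had a peak. Over all types the median uniqueness was 84.6% for histone genes with a peak, 4.16% for those without and 100% over all coding genes. Of the 20 histone windows with no unique word, none had a promoter peak or any ranked peak, and none of the 165 other coding windows of that kind had a promoter peak.

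Among the 32 histone genes whose window was at least 50% unique, 21 had a peak (65.6%), beside 4.11% of all coding genes with such windows. These were 8 of 8 H4 genes, 9 of 12 H3 genes, 2 of 5 H2A genes, 1 of 4 H2B genes, the linker gene and neither of the untyped genes. For pairs whose segment was at least 50% unique, all 6 H3/H4 pairs had a summit in either window, as did the H2A/H4 pair, against 1 of 4 H2A/H2B pairs. The exceptions were his-61/his-62, his-8/his-7 and his-35/his-41. Of these, his-61 and his-62 each had a promoter peak in the optimal list. The difference between pair types was not tested, because the pairs number few and were described with these counts in view.

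**Figure D3:**
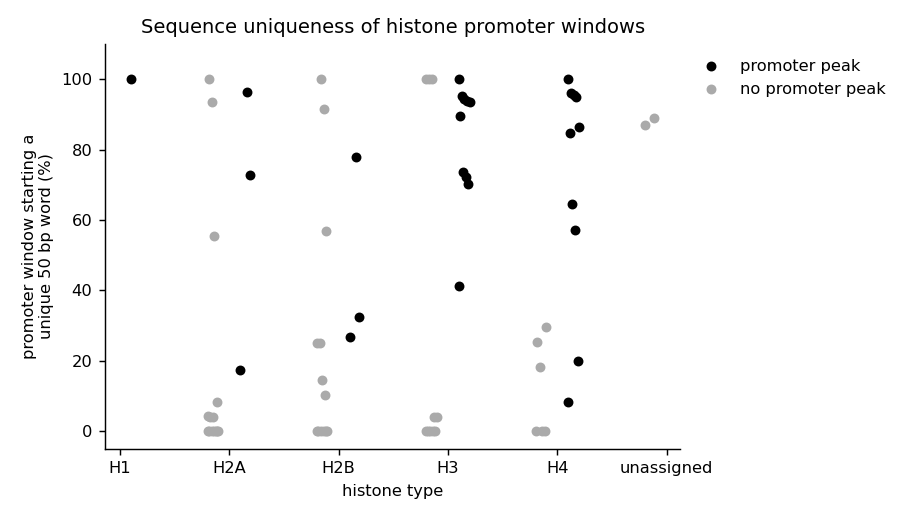
Percent of the promoter window (y axis) that starts a unique 50 bp word, for each histone gene by type, with genes that have a promoter peak in black and those without in grey. The genes at 0% are all grey, the H4 genes above 50% are all black, and grey H2A, H2B and H3 genes remain above 50%.

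The peakless genes with unique windows had weaker ranked peaks or none. His-61, an H2A gene with a peak in the optimal list, came closest. Its ranked peak had a signal of 70.2 and a −log10 IDR of 1.94, where the threshold is 2. His-8, the H2B partner of his-7, had 84.4 at 1.53, and the ranked peak shared by his-35 and his-41 had 44.3 at 0.77. Of the 45 peakless histone genes, 34 had no ranked peak in the window. That is 47.2% of all 72 histone genes, beside 57.3% of all coding genes, although the full ranked list holds 74874 peaks. The highest ranked signal in a peakless window was 107 at his-12, with a −log10 IDR of 0.91. That gene, with 4.16% of the words in its window unique, had a promoter peak in the optimal list and in replicate 1's own list.

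By position, 61 of the genes formed 11 clusters of at least 3 genes with gaps up to 10 kb, and 20 of these 61 had a peak. A summit in a member's window was found in 9 of the 11 clusters. The clusters without one were that of his-55, his-56, his-58 and his-57 on chromosome IV and that of his-50, his-49, his-51, his-52, his-54 and his-53 on chromosome V. In the latter no 50 bp word of any promoter window was unique, and in the former the mean over the windows was 14.7%. At his-55/his-56 and at his-49/his-50, the H3/H4 pairs of these clusters, no ranked peak lay in any of the windows.

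In the largest cluster, 13 genes over 10938 bp on chromosome II, 3 genes had a promoter peak and the summits lay at the edges of unique sequence. The summit counted for his-15 (H2B), with 66.8 in replicate 1, 114 in replicate 2 and 179 in the conservative list, lay 33 bp past the 3' end of his-16, the H2A gene at the outer end of the cluster. The summit counted for his-26 (H4), with 83.2, 101 and 171, lay 65 bp past the 3' end of his-25, its H3 partner. The summit counted for his-42 (H3), with 51.0, 54.8 and 114, lay 602 bp upstream of that gene and 6 bp from a gene for a small nuclear RNA. Whether these summits belong to the histone gene, to its partner's end or to the neighbouring gene cannot be told apart from their positions.

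**Figure D4:**
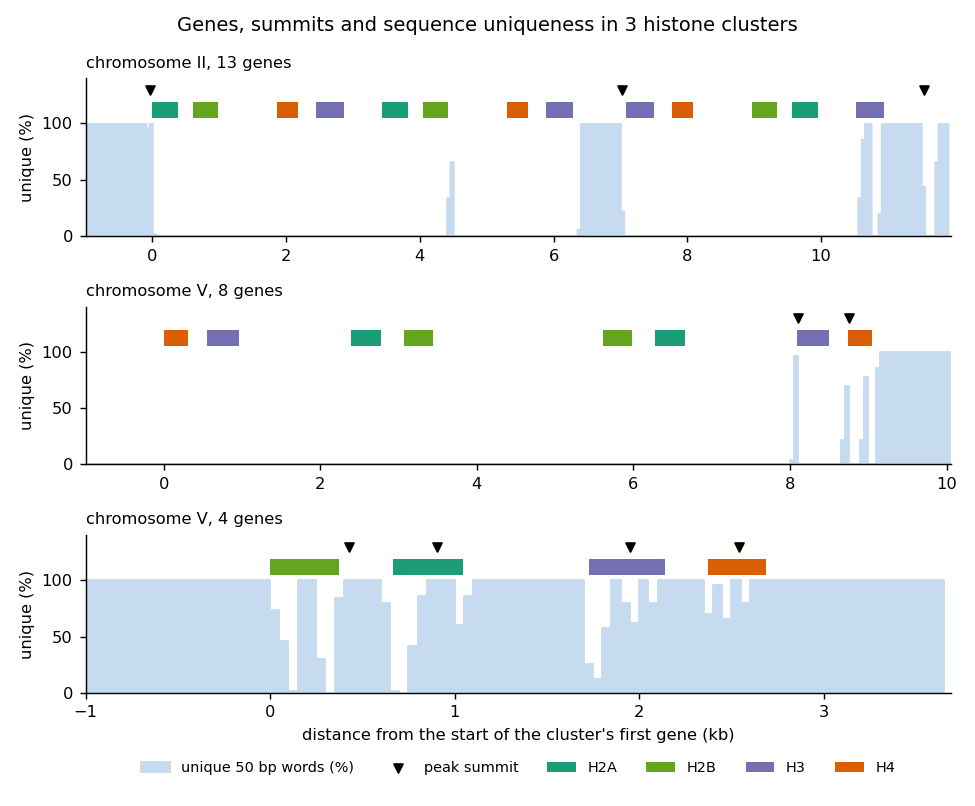
Genes (coloured boxes by type), summits (black triangles) and the percent of unique 50 bp words in 50 bp steps (blue) along 3 histone clusters, against the distance in kb from the start of the first gene. In the clusters of 13 and 8 genes the summits lie at or beside stretches with unique words, and in the cluster of 4 genes they lie over largely unique sequence.

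In all, 5 of the 25 summits lay past the 3' end of a histone gene and entered the count through the window of its partner or neighbour. Besides those at his-16 and his-25, they lay 81 bp past his-47, counted for his-48, 175 bp past his-66, counted for his-65, and 176 bp past his-41, counted for his-37. The conservative signals were 120 at his-48, 106 at his-65 and 147 at his-37. At his-48 replicate 1 had 72.1 and replicate 2 had 50.8, and at his-65 they had 50.04 and 62.3. Thus 3 of the 6 H2A and H2B genes with a peak, his-15, his-48 and his-65, owe it to a summit beyond the other end of their pair.

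His-37, an H4 gene with no divergent partner, had a further summit 20 bp upstream of its 5' end. Its signal was 48.7 in replicate 1, 77.6 in replicate 2 and 135 in the conservative list. This is the only H4 gene outside a pair, and its window was 100% unique.

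The linker histone gene his-24 (chrX:14490094-14491119) had a summit 69 bp downstream of its 5' end, in its coding sequence, with 78.1 in replicate 1, 109 in replicate 2 and 147 in the conservative list. A further conservative summit with a signal of 146 lay inside the gene but beyond the promoter window. Both lay in unique sequence, and the promoter summit passed in each replicate's own list.

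Of the 8 genes listed here as replication-independent variants, 3 had a promoter peak, beside 24 of the 64 other histone genes. His-73 was on this list although its product names no histone type. All 8 variants have windows at least 50% unique, and among the 24 other histone genes with such windows 18 had a peak. The variants with a peak were his-24, his-72 and his-70. His-72 (chrIII:12367475-12369050), which encodes an H3.3 histone, had 40.8 in replicate 1, 85.6 in replicate 2 and 146 in the conservative list, at a summit inside the gene outside its coding sequence and 231 bp from a gene for a small nucleolar RNA. Another conservative summit, with a signal of 116, lay 297 bp past the 3' end of his-72. His-70, an H3.3-like gene, had 53.1 and 64.1 in the replicates and 111 in the conservative list, 933 bp upstream of its 5' end and near the limit of the window. Within 100 bp of that summit 49.3% of the 50 bp words were unique, and replicate 1's own list did not hold the peak.

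The other listed variants had no promoter peak although at least 89.1% of the words in their windows were unique. His-71 (chrX:7981382-7982070), which encodes the other main H3.3 protein, and his-74 (chrV:12659704-12660330), an H3.3-like gene, had no ranked peak in the window. His-69 (chrIII:4058360-4058743), the neighbour of his-70, had a highest ranked signal of 33.3 and his-73 (chrII:13183705-13183845), a short gene whose product names a histone domain only, had 25.0. His-35, the H2A variant, is described with its pair above.

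Other histone and histone supply genes were listed as a separate set of 25, of which 22 were found in the annotation and 5 had a promoter peak, beside 4.09% of all coding genes. The strongest were chaf-2, a subunit of the chromatin assembly factor CAF-1, with 89.7 in replicate 1, 178 in replicate 2 and 278 in the conservative list, and unc-85, an ASF1 histone chaperone, with 114.9, 176 and 269. Htz-1, which encodes the variant H2A.Z, had 54.9, 93.2 and 153. The linker histone gene hil-3 had 72.4, 58.1 and 119, and lin-53, which encodes a histone-binding protein of the RbAp46/48 family, had 70.2, 48.0 and 116.

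The summits lay at -181 bp from the 5' end at chaf-2, -316 bp at unc-85, -312 bp at htz-1, -11 bp at hil-3 and -206 bp at lin-53, where negative values are upstream. The other linker genes hil-1, hil-2, hil-4, hil-5, hil-6 and hil-7 had no promoter peak, nor had hcp-3 and cpar-1, which encode centromeric H3 variants. The same held for cdl-1, which encodes the protein that binds the stem-loop of histone messages, for asfl-1, the other ASF1 gene, and for chaf-1, rba-1, hira-1, nasp-1, spt-16, hmg-3 and hmg-4, which act in histone deposition or exchange. In both replicates the values at unc-85 and chaf-2 were above those at the other 3 genes of this set with a peak.

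The sequence words in histone promoters were compared with those in all coding promoters, each of 300 bp from 250 upstream to 50 downstream of the 5' end, on both strands. CTCCNCC was found in 66 of 72 histone promoters (91.7%) and 13.7% of all coding promoters, and in all 31 segments between pairs, beside 15.6% of other head-to-head segments. GACACAT was found in 59.7% of histone promoters and 3.6% of all, and TATAAA in 65.3% and 37.9%. GAGAGA was found in 45.8% and 21.8%, CCAAT in 54.2% and 45.5%, and CTTGCGC in 1.39% and 1.23%. Many histone promoters are copies of each other, so these shares count few independent sequences.

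The forkhead core word GTAAACA was found in none of the 72 histone promoters, beside 4.77% of all coding promoters. Within 50 bp of the histone summits it was found at none of 25, and at 1.25% of all 1440 summits. CTCCNCC was found within 50 bp at 24% of the histone summits and 11% of all summits, CCAAT at 32% and 17.2%, TATAAA at 20% and 4.93%, and GAGAGA at 4% and 12.4%. GACACAT was found at 4% of the histone summits and 1.74% of all, and CTTGCGC at none and 4.31%. The words describe these windows only and say nothing of the factor that binds there.

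The 12 words of 7 bp found in most pair segments were chosen from these data and differed in how common they are elsewhere. TGAAGAA was in 23 of 31 segments and 51.4% of histone promoters, beside 13.6% of all coding promoters. GGGACAC was in 24 of 31 segments and 70.8% of histone promoters, beside 1.51% of all coding promoters. CACCGCA was in 62.5% and 1.75%, and CATTCGG in 61.1% and 2.17%. The segments between histone pairs had a mean GC content of 46.2%, beside 33.6% in other head-to-head segments, while the 101 bp around histone summits had 48.9%, beside 49.7% around all summits.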

How the data were processed

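ChIP-seq peak lists from 2 biological replicates of 1 group were used. Peaks were placed on ce11, per the deposited file lists. Aligner, peak caller, read depth and read filters are not stated in the sources used here, so the depth is unknown. The deposited score is a whole number made from the IDR. The signal is the authors' own value per peak, and the deposited ranked lists give the −log10 of the global IDR. Mitochondrial peaks were set aside. Peaks numbered 1452 in the conservative, 1793 in the optimal, 1041 in the replicate 1 and 1164 in the replicate 2 list as deposited. A summit was matched to a replicate's ranked peak within 200 bp.

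Promoters, names and sequences came from Ensembl release 115 and the RefSeq copy of WBcel235, with Python 3.11.15, NumPy 2.4.6 and SciPy 1.17.1. Steps were tested on simulated data with planted summits and repeats. No test compares conditions, since the study has 1 group. The members and lists were chosen with earlier results of these data known. All histone genes could be named, and full values were given for the 10 summits of highest signal, every isolated or variant gene, 1 pair of each cluster without a summit and every listed supply gene with a peak, while other genes were named after their values were seen. Lsm-10, lsm-11 and spt-6 of the supply list were not matched by symbol and not analysed here. Alternatives were another list or IDR, each replicate's own list, other windows, nearest gene only, no joining of summits, any base of a peak, and other cluster and pair distances.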

Additional observations from a re-analysis of the deposited data

How the results depend on the processing

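The 27 histone genes became 17 at an IDR of 0.001 or less and 16 when a summit counted for its nearest gene only, and the 25 distinct summits became 13 at that IDR, 13 in windows of 500 bp upstream and 100 bp downstream, and 16 for the nearest gene. Over all coding genes the count fell from 816 to 396 at an IDR of 0.001, so the histone share was 23.6% beside 1.98%. In the replicates' own lists, the histone genes numbered 22 in replicate 1 and 21 in replicate 2, beside 3.09% and 3.42% of all coding genes, and 21 of the 27 were held in each. In the wider windows of 2000 bp upstream and 500 bp downstream the count was 36, or 50% beside 5.81% of all coding genes. For the nearest gene only, the 16 histone genes were 22.2%, beside 2.97% of all coding genes.

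By type, H2A went from 3 genes to 5 in the optimal list, 7 in the wider windows and 1 for the nearest gene. H2B went from 3 to 1 in the narrower windows, 5 in the wider windows and 1 for the nearest gene, and to 1 among windows at least 50% unique, an alternative chosen after seeing the data. H3 went from 10 to 5 at an IDR of 0.001 and ranged from 6 to 7 when either replicate was left out. H4 went from 10 to 5 for the nearest gene, where H3 had 8. The supply genes with a peak went from 5 to 2 at an IDR of 0.001 and ranged from 3 to 5 when either replicate was left out. The variants with a peak went from 3 to 1 at an IDR of 0.001 and in the narrower windows. The median histone signal of 154 became 191 at an IDR of 0.001, 79.0 in replicate 1 alone and 103 in replicate 2 alone, where the scaling between lists is not stated. CTCCNCC lay at 24% of the histone summits within 50 bp and at 56% within 100 bp, beside 11% and 17.3% of all summits. The causes of these changes were not tested.

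The pairs with a summit, 13 in the main count, became 9 at an IDR of 0.001, in the narrower windows and for the nearest gene only. In the wider windows they became 18. The clusters with a summit, 9 in the main count, became 6 at an IDR of 0.001. Both counts stayed within 1.5 times of the main ones under every alternative run for them, the 6 clusters at that limit. No paired analysis was possible because the study has 1 group. Read depth is not given in the sources used here, so no limit of detection can be stated, and genes with repeated sequence and no peak cannot be told apart from unbound genes.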
